A study of Macaca mulatta with 10 samples.

Results

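Arteries, arterioles and capillaries are wrapped by mural cells, which are contractile smooth muscle cells around the larger vessels and pericytes around the smallest. Smooth muscle contracts when calcium activates a kinase that phosphorylates myosin, and this sets blood flow through skeletal muscle and adipose tissue. Mural cells are recruited and kept on vessels by platelet-derived growth factor from the endothelium and by Notch signals from neighboring cells. The 10 genes described here mark these cells and were all found among the 28595 Ensembl macaque genes in the files, by symbol, with 1 gene identifier each. Of these, 7 encode parts or regulators of the contractile apparatus, namely *ACTA2*, *TAGLN*, *MYH11*, *CNN1*, *MYLK*, *LMOD1* and *ACTG2*. The other 3, *PDGFRB*, *RGS5* and *NOTCH3*, encode receptors or a signaling regulator typical of pericytes and vascular smooth muscle.

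Skeletal muscle and fat (adipose tissue) of 5 male rhesus monkeys were studied by RNA-Seq, with a library of each tissue from each animal. The hyperinsulinemic monkey, rhesus_950807, was labelled as a case with an extreme insulin level and is called the case here. In the study it was obese, with severe insulin resistance and systolic hypertension. It was heterozygous for a nonsense mutation in *PRKD2*. The mRNA of *PRKD2* was at 0.387 RPKM in its muscle against 1.14 to 1.79 in the controls and at 3.66 RPKM in its adipose tissue against 3.27 to 6.12. Monkeys rhesus_920401, rhesus_940129, rhesus_940313 and rhesus_950509 were controls, and all animals were kept in 1 facility on the same chow. Ages are not in the labels. Since the hyperinsulinemic group is a single animal, its insulin level, insulin resistance, obesity, blood pressure, genotype and individual variation cannot be told apart.

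Strand-specific libraries of poly(A) RNA were used. Muscle libraries held 35682861 to 43268985 mapped reads in the controls and 33961486 in the case, and adipose libraries 30669915 to 39379286 and 41780234. Levels are given as RPKM, reads per kilobase of a gene's longest transcript, scaled to the mapped reads of its library. Of those reads, 64.6% fell in genes in muscle of the case against 52.0% to 62.1% in the controls. In adipose tissue the shares were 61.4% against 48.2% to 59.4%. A larger share raises RPKM throughout a library. Control values are listed in the order of the animals above. All 10 genes passed the filter, a mean of at least 1 RPKM, in both tissues. In these bulk libraries, fewer mural cells and less RNA per cell cannot be told apart. Skeletal actin *ACTA1*, a fiber mRNA, reached 101 and 80.9 RPKM in the adipose libraries of controls rhesus_920401 and rhesus_940313, against at most 1.72 in the other 3. These were 0.343% and 0.270% of its level in muscle of the same animal. At the shares of *ACTA1* alone, muscle would account for at most 0.690% of the adipose level of any of the 10 genes, the highest being *LMOD1* in rhesus_940313. Other fiber genes differed from *ACTA1*. *TNNT3* was at 13.3 to 75.8 RPKM in control adipose tissue and 23.0 in the case, and *ACTN3* at 2.64 to 11.2 and 8.19. *CKM* and *MB* were at 0.542 and 0.269 RPKM in the case. Shares from these genes were not computed.

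The actin of vascular smooth muscle is encoded by *ACTA2*, on the minus strand of chromosome 9 from 88515078 to 88574330 (positions counted from 1, in the build of the files, which the sources used here do not name). In muscle its level was 44.4, 64.8, 74.4 and 69.0 RPKM in controls rhesus_920401, rhesus_940129, rhesus_940313 and rhesus_950509, and 26.2 RPKM in the case. The lowest control was thus above the case, whose level was 41.6% of the control mean of 63.1 ± 13.1 RPKM (SD, n = 4). In adipose tissue *ACTA2* stood at 156, 218, 170 and 200 RPKM in the same 4 controls and at 250 RPKM in the case. Here the order was turned around, with the case above every control.

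*TAGLN*, at chromosome 14 from 115597814 to 115603581 on the plus strand, encodes transgelin, an actin-binding protein abundant in smooth muscle. Its muscle levels were 36.1, 36.1, 44.9 and 40.7 RPKM in the controls and 16.8 RPKM in the case, 42.6% of the control mean. The controls lay close together (39.5 ± 4.25 RPKM, SD, n = 4), and the hyperinsulinemic monkey lay well below them. In adipose tissue the values were 1145, 266, 337 and 345 RPKM in the controls and 321 RPKM in the case. Control rhesus_920401 stood far above the other 4 libraries, and the case lay inside the range of the controls. The *TAGLN* level was 7.36 times that of *ACTA2*, in RPKM, in adipose tissue of rhesus_920401, against 1.22 to 1.98 in the other 3 controls.

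*MYH11* (chromosome 20, 15420394 to 15554364, minus strand) encodes the smooth muscle myosin heavy chain, the motor of the contractile apparatus and the marker most restricted to mature smooth muscle. The controls had 3.63, 7.09, 6.62 and 7.27 RPKM in muscle, and the case had 3.05 RPKM. That is below all controls, but close to rhesus_920401. Adipose levels were 7.17, 26.0, 15.3 and 26.9 RPKM in the controls and 38.0 RPKM in the case, which was 202% of the control mean of 18.8 ± 9.41 RPKM. Control rhesus_920401 was the lowest control for *MYH11* in both tissues.

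Calponin 1, which binds actin and restrains the myosin ATPase, is the product of *CNN1* (chromosome 19, 11368700 to 11380300, plus strand). Its muscle levels were 2.88, 3.09, 5.79 and 6.21 RPKM in the controls against 1.54 RPKM in the case, from 152 to 345 reads in the controls and 72 reads in the case (95% Poisson interval 56.3 to 90.7, counting error only). The case was again the lowest. In adipose tissue, 6.61, 15.6, 9.41 and 16.5 RPKM were found in the controls and 16.0 RPKM in the case, which therefore lay inside the control range, just under its upper end.

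*MYLK* (chromosome 2, 43605682 to 43826872, minus strand) encodes the kinase that phosphorylates myosin light chains and starts contraction. It had the lowest level of the 10 genes in muscle, with 1.36, 2.07, 2.25 and 1.81 RPKM in the controls and 1.13 RPKM in the case. In adipose tissue it reached 34.8, 12.8, 17.5 and 31.3 RPKM in the controls and 32.7 RPKM in the case. The muscle level of the case was below all controls, and its adipose level was exceeded by that of rhesus_920401 alone.

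Leiomodin 1, which starts new actin filaments in smooth muscle, is encoded by *LMOD1* (chromosome 1, 168539808 to 168592260, plus strand). Control muscle held 16.5, 23.5, 46.0 and 14.0 RPKM, a 3.29-fold span, and muscle of the case held 9.44 RPKM. Control rhesus_940313 stood well above the rest. Adipose levels were 19.997, 19.9, 18.0 and 13.3 RPKM in the controls, and 37.8 RPKM in the case was 212% of the control mean. This is the gene whose adipose level in the case stood farthest above the controls in proportion to their mean.

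*ACTG2* (chromosome 13, 74108933 to 74135896, plus strand) encodes gamma smooth muscle actin, best known from the gut and other hollow organs. Muscle levels of 2.59, 2.52, 6.05 and 6.02 RPKM in the controls compared with 1.81 RPKM in the case, the latter from 79 reads. In adipose tissue the controls had 11.1, 29.6, 19.9 and 32.6 RPKM and the case had 36.7 RPKM. As for *ACTA2*, *MYH11* and *LMOD1*, the hyperinsulinemic monkey was, in RPKM, the lowest of the 5 animals in muscle and the highest in adipose tissue.

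Turning to the mural signaling genes, *PDGFRB* (chromosome 6, 146593574 to 146635762, minus strand) encodes the receptor through which platelet-derived growth factor holds pericytes on capillaries. Its muscle levels were 5.00, 5.97, 2.96 and 7.80 RPKM in the controls and 3.46 RPKM in the case, between the lowest control, rhesus_940313, and the next. Adipose levels were 23.6, 19.5, 14.4 and 22.2 RPKM in the controls and 25.8 RPKM in the case. In adipose tissue the case was thus above all controls, by a small margin over rhesus_920401.

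*RGS5* (chromosome 1, 193052515 to 193080429, minus strand) encodes a regulator of G-protein signaling that is a classical pericyte marker. Control muscle had 3.54, 7.53, 2.57 and 7.43 RPKM, and 5.30 RPKM in the case sat in the middle. In adipose tissue the controls had 26.3, 18.3, 24.7 and 31.5 RPKM, and the case had 21.9 RPKM, above rhesus_940129 alone. *NOTCH3* (chromosome 19, 14754244 to 14787505, minus strand) encodes the Notch receptor of arterial smooth muscle and pericytes. Its levels in muscle were 2.88, 3.37, 2.71 and 3.66 RPKM in the controls and 3.20 RPKM in the case. Adipose tissue gave 5.33, 8.31, 4.74 and 5.26 RPKM in the controls and 7.51 RPKM in the case. For both genes the case lay inside the control range in both tissues.

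**Figure D1:**
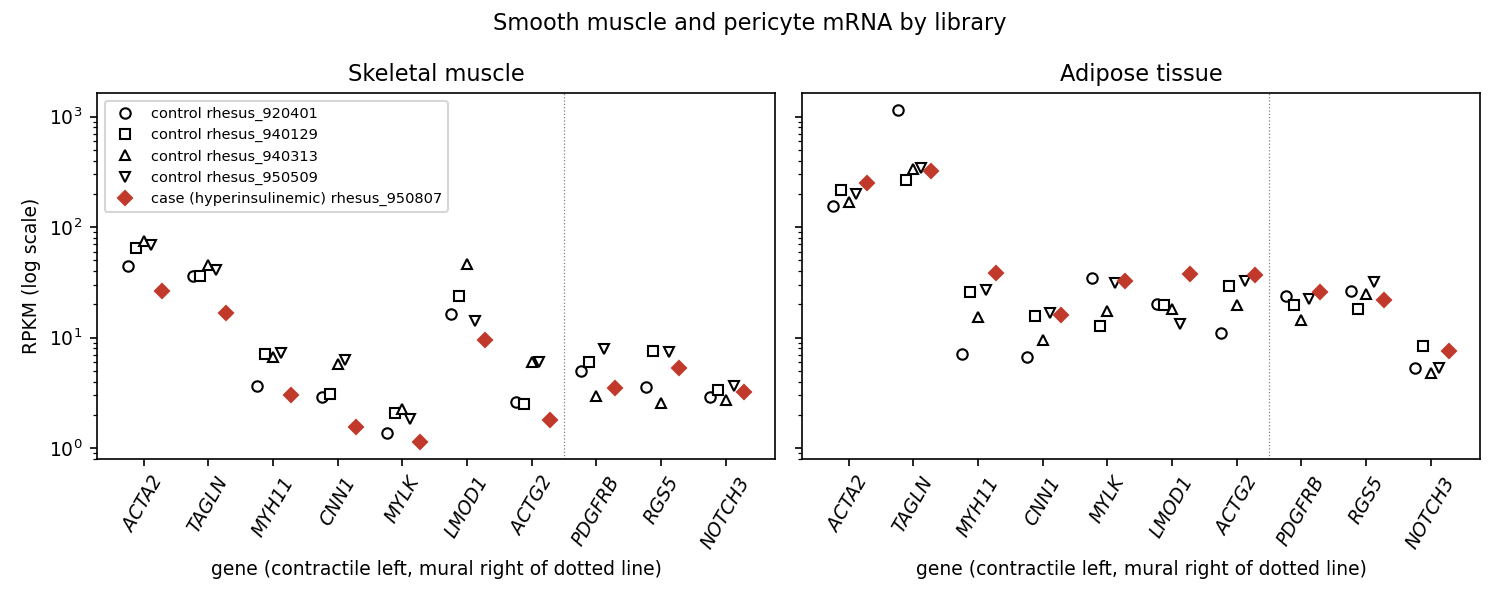
Level of each of the 10 genes in RPKM (log axis) in skeletal muscle (left) and adipose tissue (right), 1 point per library, with open symbols for the 4 controls and a red diamond for the case. The diamond lies below all controls for the 7 contractile genes in muscle, and above all controls for *ACTA2*, *MYH11*, *LMOD1*, *ACTG2* and *PDGFRB* in adipose tissue.

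Among the genes, levels per length in control muscle fell in the order *ACTA2*, *TAGLN*, *LMOD1*, *MYH11*, *PDGFRB*, *RGS5*, *CNN1*, *ACTG2*, *NOTCH3* and *MYLK*. Neighbors in this order overlapped in their control ranges except *LMOD1* over *MYH11* and *NOTCH3* over *MYLK*. In control adipose tissue *TAGLN* was first at a mean of 524 ± 416 RPKM (SD, n = 4) and *ACTA2* was next at 186 ± 28.2 RPKM, and neither range overlapped the next one. *RGS5*, *MYLK*, *ACTG2*, *PDGFRB*, *MYH11*, *LMOD1*, *CNN1* and *NOTCH3* followed, from 25.2 down to 5.91 RPKM, with every neighboring pair overlapping. *MYLK* had place 10 in muscle and place 4 in adipose tissue, whereas *LMOD1* had place 3 in muscle and place 8 in adipose tissue.

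The first comparison asked whether vascular smooth muscle and pericyte mRNA in skeletal muscle of the hyperinsulinemic monkey differed from that of controls. Muscle of the case had less mRNA of the contractile genes than any control, for 7 of the 10 genes, while none was above all controls. Over all 8306 genes tested in muscle, 15.2% lay below all 4 controls in RPKM. The same 7 genes lay below all controls after TMM scaling, which removes differences in composition between libraries, as well. By edgeR's quasi-likelihood test the log2 differences of the case from the controls were all negative, with a median of −1.30 over the 10 genes and −0.03 over all genes tested. None of the 10 was called at an adjusted p under 0.05, and 0% of all genes were. At an unadjusted p under 0.05, 6 of the 10 genes had a negative difference, as did 5.29% of all genes tested.

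*TAGLN* had the smallest p of the 10, with a log2 difference of −1.40 (SE 0.287) and an adjusted edgeR p of 0.342. For *ACTA2* the difference was −1.44 (SE 0.345, adjusted p = 0.404 in edgeR). *CNN1* showed the largest difference, −1.72 (SE 0.622), and its 95% interval ran from −3.12 to −0.33 (adjusted p = 0.496 in edgeR). *LMOD1*, *MYH11* and *MYLK* differed by −1.56, −1.19 and −0.90 on the log2 scale, with edgeR's adjusted p from 0.496 to 0.519. *ACTG2*, at −1.43, did not reach the unadjusted threshold (adjusted p = 0.585 in edgeR). *PDGFRB*, *RGS5* and *NOTCH3* had differences of −0.84, −0.18 and −0.16, with 95% intervals that held 0. The signs of the last pair turned when libraries were scaled to mapped reads.

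DESeq2, which estimates the spread of each gene in another way, called *ACTA2* (adjusted p = 0.00731) and *TAGLN* (adjusted p = 0.00108) lower in muscle of the case, and no other of the 10 genes. It called 88 genes in all, against 0 in edgeR, where 754 had an unadjusted p under 0.05. Over all alternatives to the edgeR fit, the adjusted p ranged from 0.00731 to 0.537 for *ACTA2* and from 0.00108 to 0.692 for *TAGLN*. An exact permutation test of 1 animal against 4 cannot give a two-sided p under 0.2, so it can call no single gene. Samples are different animals, but a spread within the hyperinsulinemic group was not measured, and the lone animal was assumed to vary like the controls.

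Ratios between the 10 genes within a library do not depend on how libraries are scaled. In muscle the contractile genes exceeded the mural signaling genes, in mean log2 RPKM, by 0.95, 0.81, 2.29 and 0.88 in the controls and by 0.23 in the case. The geometric mean of the contractile genes was 7.17 to 13.5 RPKM in the controls and 4.54 RPKM in the case, and that of the mural signaling genes was 2.74 to 5.96 RPKM and 3.88 RPKM. *ACTA2* per *NOTCH3* was 15.4 to 27.4 in control muscle and 8.21 in the case, and *ACTA2* per *RGS5* was 8.60 to 29.0 and 4.95. *ACTA2* per *PDGFRB* came closer to the controls, at 8.84 to 25.1 and 7.58. Among the contractile genes, *TAGLN* per *ACTA2* in muscle of the case (0.640) lay inside the control range of 0.557 to 0.814, as did *LMOD1* per *MYH11*, *MYLK* per *MYH11* and *ACTA2* per *ACTG2*. In adipose tissue the contractile genes exceeded the mural signaling genes by 1.23 to 1.57 in the controls and by 1.84 in the case. There *ACTA2* per *NOTCH3* was 26.2 to 38.1 in the controls and 33.4 in the case. *ACTA2* per *RGS5* was 5.92 to 11.9 and 11.4, and *ACTA2* per *PDGFRB* was 6.58 to 11.8 and 9.70, all inside the control range. The division into contractile and mural signaling genes follows their known roles but was made with values known, so these ratios have no test.

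In adipose tissue the same comparison gave no call. The hyperinsulinemic monkey was above all controls for 5 of the 10 genes in RPKM and below all controls for 0, where 27.9% of all 11981 genes tested were above all controls. With TMM scaling *ACTA2* left this group and 4 genes stayed. By edgeR's quasi-likelihood test 0 of the 10 genes were called, 0 had an unadjusted p under 0.05, and DESeq2 called 0 of them. Over all genes 0% were called by edgeR, 286 had an unadjusted p under 0.05, and DESeq2 called 11. The median log2 difference of the 10 genes was 0.22, against −0.06 over all genes tested. *LMOD1* came closest to the threshold, with a log2 difference of 0.89 (SE 0.401, 95% interval −0.01 to 1.78, adjusted p = 0.99987 in edgeR). *MYH11* had the next largest, 0.80, with a 95% interval from −0.60 to 2.20, and *TAGLN* the most negative, −0.86, with an interval from −2.53 to 0.82. The *TAGLN* value depended on control rhesus_920401, without which it was −0.22.

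**Figure D2:**
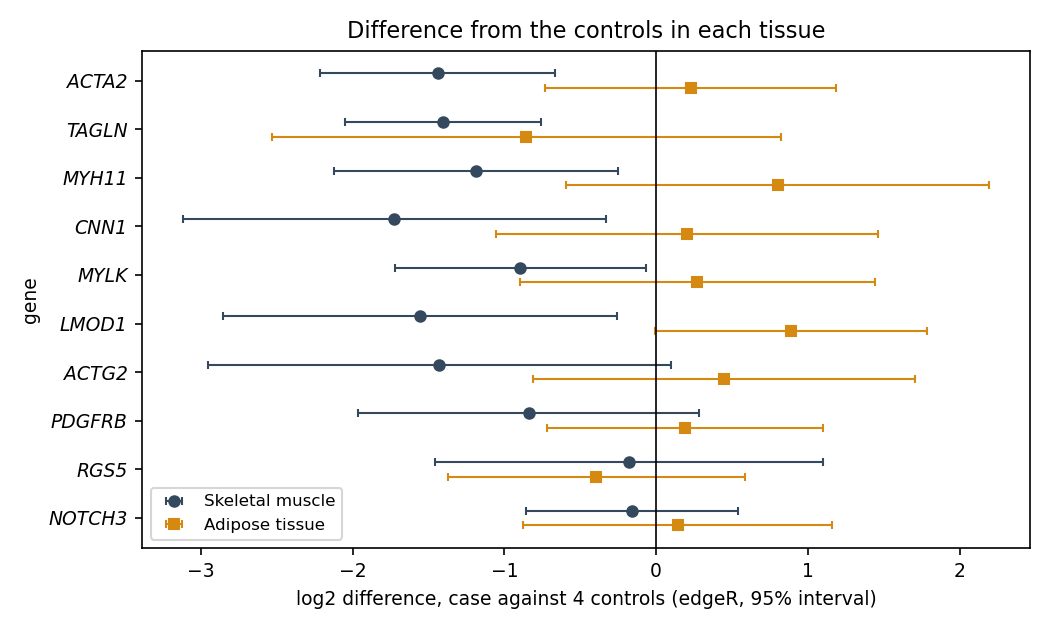
Log2 difference of the case from the 4 controls in skeletal muscle (dark circles) and adipose tissue (orange squares) for each gene, from edgeR with TMM scaling, with bars for 95% intervals. In muscle all 10 values are negative and 6 intervals lie wholly below 0, whereas in adipose tissue all 10 intervals hold 0.

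Most of the genes did not go the same way in both tissues. The difference of the case from the controls had opposite directions in muscle and adipose tissue for 8 of the 10 genes and the same, negative direction for *TAGLN* and *RGS5*, where 51.7% of the 7938 genes tested in both tissues had opposite directions. The count was 8 with mapped totals too, with *NOTCH3* in place of *RGS5* among those of the same direction, and 7 to 9 when 1 control was left out. *ACTA2*, *MYH11*, *LMOD1* and *ACTG2* were below all controls in muscle and above all controls in adipose tissue, 4 of 10 genes, where 4.6% of these genes showed that pattern. The difference of the effects, adipose tissue minus muscle, was tested by an interaction term in edgeR. For *LMOD1* it was 2.50 (SE 0.727, adjusted p = 0.822) and for *ACTA2* 1.71 (SE 0.496, adjusted p = 0.822). *MYH11* at 2.03 and *CNN1* at 1.98 also had an unadjusted p under 0.05 in edgeR, with an adjusted p of 0.902 each. *ACTG2*, *MYLK* and *PDGFRB* had values of 1.92, 1.18 and 1.07, and *TAGLN*, *NOTCH3* and *RGS5* of 0.59, 0.37 and −0.20, whose intervals held 0. Without control rhesus_920401 the *TAGLN* value was 1.25.

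The median of these interaction values was 1.45 over the 10 genes and 0.01 over all genes tested. Among the marker lists described below, it was 1.80 for macrophages (4 of 4 genes positive), 0.63 for fibroblasts (8 of 9) and 0.40 for endothelium (8 of 9). For skeletal fiber genes it was −2.81, with 2 of 8 positive. Whether the pattern is particular to the 10 genes was not tested. None of the 10 was called, and 0% of all genes were, while 434 genes had an unadjusted p under 0.05 and DESeq2 called 16. In the direction of more mRNA in adipose tissue, 4 of the 10 genes had an unadjusted p under 0.05 in edgeR, as did 4.09% of all genes. DESeq2 called 0 of the 10 genes. The animal was also taken as a block in the same fit, since both tissues came from the same animals. There 5 of the 10 genes had an unadjusted p under 0.05 in edgeR, as did 400 of the 7938 genes tested, and 0 of the 10 were called.

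Among the controls, the animals at the ends of the range were compared between tissues. The control with the lowest level, in RPKM, was the same in both tissues for 7 genes, namely *ACTA2*, *MYH11* and *CNN1* in rhesus_920401, *TAGLN* in rhesus_940129, *LMOD1* in rhesus_950509, and *PDGFRB* and *NOTCH3* in rhesus_940313. After TMM scaling it was the same for 6 of these, without *NOTCH3*. The control with the highest level was the same for 2 genes on either scale, but for different ones, *MYH11* and *CNN1* in RPKM and *ACTG2* and *RGS5* after TMM scaling, each in rhesus_950509. In muscle, *MYLK* and *LMOD1* were highest in control rhesus_940313 on both scales, and *PDGFRB*, *RGS5* and *NOTCH3* were lowest there on both. The share of all genes with the same lowest or highest control in both tissues was not counted. Whether these counts exceed those of other genes was therefore not tested, and no likeness of the tissues is concluded from them. With 5 animals, no correlation between tissues was computed for single genes.

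A further comparison asked how the genes differ between adipose tissue and muscle of the 4 controls. Adipose tissue had more *TAGLN*, *MYLK* and *ACTG2* mRNA than muscle and less *LMOD1*, relative to the other genes of each tissue. In RPKM, 9 of the 10 genes were higher in adipose tissue in all 4 controls. The share of all genes higher in all 4 was not counted. Scaled to mapped reads, as RPKM is, 7040 of the 11173 genes tested were called higher in adipose tissue, so this direction is common. The ratio of adipose tissue to muscle within an animal ran from 2.29 to 3.51 for *ACTA2*, from 7.38 to 31.7 for *TAGLN*, and from 6.18 to 25.7 for *MYLK*. For *LMOD1* it was 1.21, 0.845, 0.392 and 0.954 in controls rhesus_920401, rhesus_940129, rhesus_940313 and rhesus_950509, and 4.01 in the case. The hyperinsulinemic monkey's ratio exceeded all controls for *ACTA2*, *MYH11*, *CNN1*, *MYLK*, *LMOD1*, *ACTG2* and *PDGFRB*, 7 of 10 genes, where 20.5% of the 7938 genes tested in both tissues did so.

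After TMM scaling, edgeR gave a log2 difference of adipose tissue from muscle of 2.30 for *TAGLN* (SE 0.410, adjusted p = 5.0e-04; 1.65 without control rhesus_920401) and of 2.30 for *MYLK* (SE 0.312, adjusted p = 7.1e-05). *ACTG2* was higher by 1.07 (SE 0.420, adjusted p = 0.0429 in edgeR), a call that ended when rhesus_940129, rhesus_940313 or rhesus_950509 was left out (log2 difference 0.65, 1.32 and 1.08, adjusted p from 0.0596 to 0.234). *LMOD1* was lower by 1.86 on the log2 scale, its value being −1.86 (SE 0.347, adjusted p = 6.8e-04 in edgeR). These calls, at an adjusted p under 0.05 and at least 2-fold, were 3 genes higher and 1 lower of 10, while 29.6% of the 11173 genes tested were called higher and 22% lower. *RGS5* differed by 0.89 (adjusted p = 0.0365 in edgeR), under the 2-fold limit, and with the animal as a block by 1.002 (adjusted p = 0.0251, range over all alternatives 2.6e-05 to 0.14), which is a call. *ACTA2*, *MYH11*, *CNN1*, *PDGFRB* and *NOTCH3* had values of 0.19, 0.26, 0.05, 0.49 and −0.47 and were not called.

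The scaling decided much of this comparison. Scaling to mapped reads, as RPKM does, gave a median of 1.61 over all genes, against 0.23 with TMM. Scaled to mapped reads, 7040 genes were called higher and 799 lower, against 3308 and 2459 with TMM. Of the 10 genes, 8 were then called higher and 0 lower, with a median of 1.75, which is 0.14 above that of all genes. *NOTCH3* changed sign to 0.91, and *LMOD1* was at −0.49 (adjusted p = 0.213 in edgeR, range over all alternatives 2.9e-07 to 0.398). Under both scalings *LMOD1* had the lowest value and *TAGLN* and *MYLK* the highest of the 10.

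**Figure D3:**
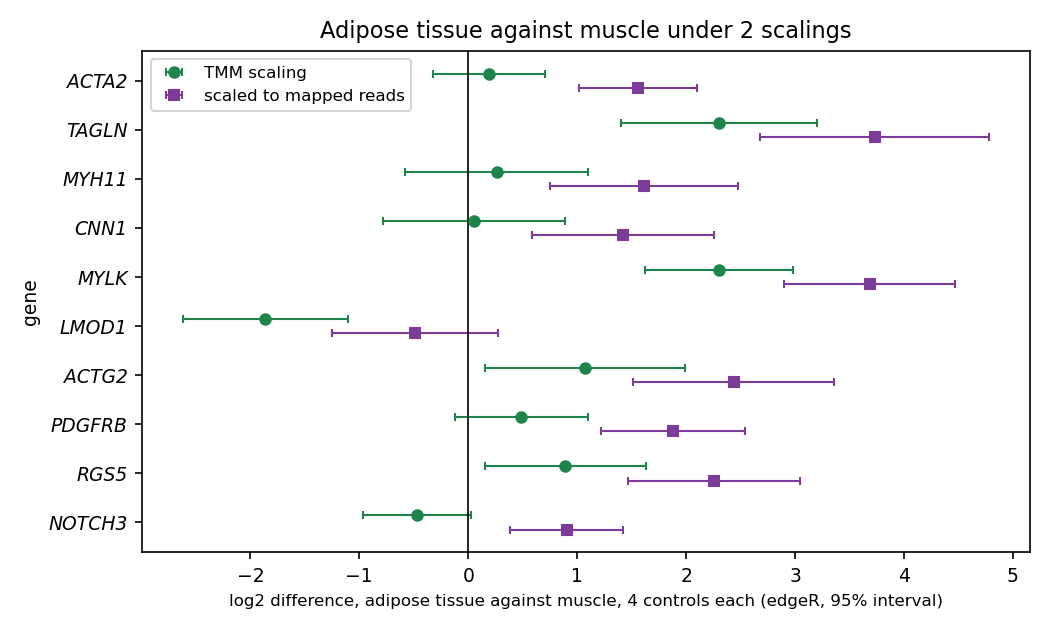
Log2 difference of adipose tissue from muscle in the 4 controls for each gene, with TMM scaling (green circles) and scaled to mapped reads (purple squares), with bars for 95% intervals from edgeR. All 10 values move to the right when mapped reads are used, and *LMOD1* is lowest and *TAGLN* and *MYLK* highest under both.

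Other genes of the same cells and pathway were read from lists chosen by function. Of 16 further smooth muscle genes, 13 were found and 10 passed the filter in muscle, where 0 were called and 1, filamin A (*FLNA*), had an unadjusted p under 0.05. *FLNA*, which crosslinks actin in smooth muscle and many other cells, was at 12.8 to 17.9 RPKM in control muscle and 8.85 RPKM in the case (log2 difference −0.94, adjusted p = 0.496 in edgeR). The median of that list was −0.05 in muscle and 0.25 in adipose tissue. Between the tissues of controls, 2 of 10 were called higher in adipose tissue and 7 lower. The tropomyosins *TPM1* and *TPM2* and synaptopodin 2 (*SYNPO2*), which skeletal fibers also use, had the smallest p, with log2 differences of −6.92, −8.24 and −7.27. *TPM2*, *DES*, *TPM1* and *SYNPO2* averaged 4314, 3537, 1624 and 180 RPKM in control muscle, against 37.1, 22.2, 35.2 and 3.02 in control adipose tissue. The muscle median of this list, −0.05, with 6 differences negative and 4 positive, therefore does not describe smooth muscle alone. Of the rest, *CALD1*, *CNN2*, *SMTN*, *KCNMA1* and *SRF* had muscle differences of −0.63, −0.39, −0.15, −0.03 and 0.07. For each of them the case lay inside the control range in RPKM, as for *CALD1*, at 2.63 against 1.86 to 4.90, and *SMTN*, at 14.4 against 9.95 to 17.2.

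Of 15 further pericyte and mural genes, 9 were found and 5 passed the filter in muscle. There 0 were called, 2 had an unadjusted p under 0.05 lower and 1 higher, and the median was −0.81. The proteoglycan NG2 (*CSPG4*), a surface marker of pericytes, was at 0.922 to 1.51 RPKM in control muscle and 0.530 RPKM in the case (log2 difference −1.25). The adhesion molecule *MCAM* was at 8.13 to 13.6 and 5.36 RPKM (−1.10). *ABCC9*, a subunit of the potassium channel of pericytes and muscle, went the other way, from 1.28 to 2.75 RPKM in the controls and 4.40 RPKM in the case (0.96). In adipose tissue 9 passed, 0 had an unadjusted p under 0.05, and the median was −0.06. Between the tissues of controls, 5 of 9 were called higher in adipose tissue and 0 lower, led by the endothelin receptor *EDNRA* at 3.25 and *MCAM* at 2.71.

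Of 16 ligands, receptors and targets of platelet-derived growth factor and Notch signaling, 14 were found. Only 5 passed the filter in muscle, with 0 called and 0 at an unadjusted p under 0.05, and 14 passed in adipose tissue, likewise with 0 and 0. The ligand *PDGFB*, which endothelial cells make to attract pericytes, had a log2 difference of −0.40 in muscle and 0.41 in adipose tissue. In controls, 7 of 13 were called higher in adipose tissue and 1 lower, with *PDGFC* at 3.97, *NOTCH2* at 2.73 and the Notch effector *RBPJ* at 2.22. Of the 6 other RGS genes found, 1 passed in muscle and 6 in adipose tissue, none with an unadjusted p under 0.05. *RGS4*, a close relative of *RGS5*, was higher in adipose tissue of controls by 3.46 on the log2 scale.

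The other actins bear on *ACTA2* and *ACTG2*, whose coding sequences are close to those of the striated actins. *ACTA1*, the actin of skeletal fibers, was at 24384 to 31634 RPKM in control muscle and 34057 RPKM in the case, the highest of the 5, where *ACTA2* was lowest. Only uniquely mapped reads were used, and how many *ACTA1* reads fell on *ACTA2* was not tested. *ACTB*, the actin of non-muscle cells, had a log2 difference of −0.63 in muscle of the case, and *ACTG1* of −0.14, and 0 of the 4 actins had an unadjusted p under 0.05.

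Markers of other cells were read beside the 10 genes. In muscle, 9 endothelial genes had a median log2 difference of −0.46 in the case, with 3 below all controls and 0 at an unadjusted p under 0.05, and their summed level, over all 10 found, was 44.2 RPKM in the case and 41.3 to 62.4 in the controls. The 9 fibroblast genes had a median of −0.35 and a sum of 178 RPKM, near the lower end of the 176 to 268 of the controls, with *FBLN1* (−1.19) and *MFAP5* (−1.51) at an unadjusted p under 0.05. The 4 macrophage genes that passed had a median of −1.06, and the sum of the 6 found was 9.05 RPKM against 8.51 to 26.1. By comparison the 10 smooth muscle and pericyte genes summed to 72.0 RPKM in the case and to 119 to 194 in the controls. Without *ACTA2* and *TAGLN* the other 8 genes summed to 28.9 RPKM against 38.4 to 75.0. The endothelial, fibroblast and macrophage sums were inside the control range, the last pair close to the lowest control, and the differences were negative for 7 of 9 endothelial, 8 of 9 fibroblast and 4 of 4 macrophage genes tested. Their part in the lower contractile levels was not tested.

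Fiber genes in muscle summed to 91828 RPKM in the case and to 69946 to 91834 in the controls. Among them the slow-fiber genes *TNNT1* and *MYH7* were at 14.3 RPKM against 69.7 to 651 in the controls and at 12.9 RPKM against 45.5 to 531 (log2 differences −4.20 and −3.98, adjusted p 0.482 and 0.496 in edgeR). The 7 adipocyte genes had a median of −0.31 and a sum of 538 RPKM against 416 to 522. Of that sum, 468 RPKM were *GPD1*, a glycerol phosphate enzyme that was not called between the tissues of controls and was at 321 to 479 RPKM in control muscle. *ADIPOQ*, *LEP*, *PLIN1*, *CIDEC* and *LIPE* together were at 31.99 RPKM in the case, inside the 9.91 to 67.4 of the controls. The gene listed as *FABP4* read lower in adipose tissue than in muscle of the controls (−6.03 on the log2 scale), so its name is doubtful. Hemoglobin and the other erythroid genes summed to 2656 RPKM, within the 693 to 3602 of the controls. Mesothelial genes were near 0 in muscle, with 3 of 4 at 0 in the case. The part of the fiber types, or of how the pieces of tissue were cut, in the lower contractile genes was not tested.

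In adipose tissue of the case, the 6 macrophage genes were all above all controls (median log2 difference 0.78, sum 377 RPKM against 110 to 311), and the fibroblast sum was 3216 RPKM against 1626 to 2948. The endothelial sum, 277 RPKM, was above the 173 to 251 of the controls, but 6 of its 10 genes had negative differences, the median was −0.05, and 3 genes were above all controls, among them *PECAM1* and *VWF*. The sum of the 10 smooth muscle and pericyte genes, 788 RPKM, lay inside the control range of 632 to 1436, which is wide through *TAGLN* in rhesus_920401. Adipocyte genes summed to 4356 RPKM against 2854 to 7191, mesothelial genes to 164 against 62.5 to 201, and erythroid genes to 6285 against 1228 to 6852. Fiber genes summed to 40.7 RPKM in the case and to 22.7 to 360 in the controls. The part of these cells in the adipose levels was not tested.

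**Figure D4:**
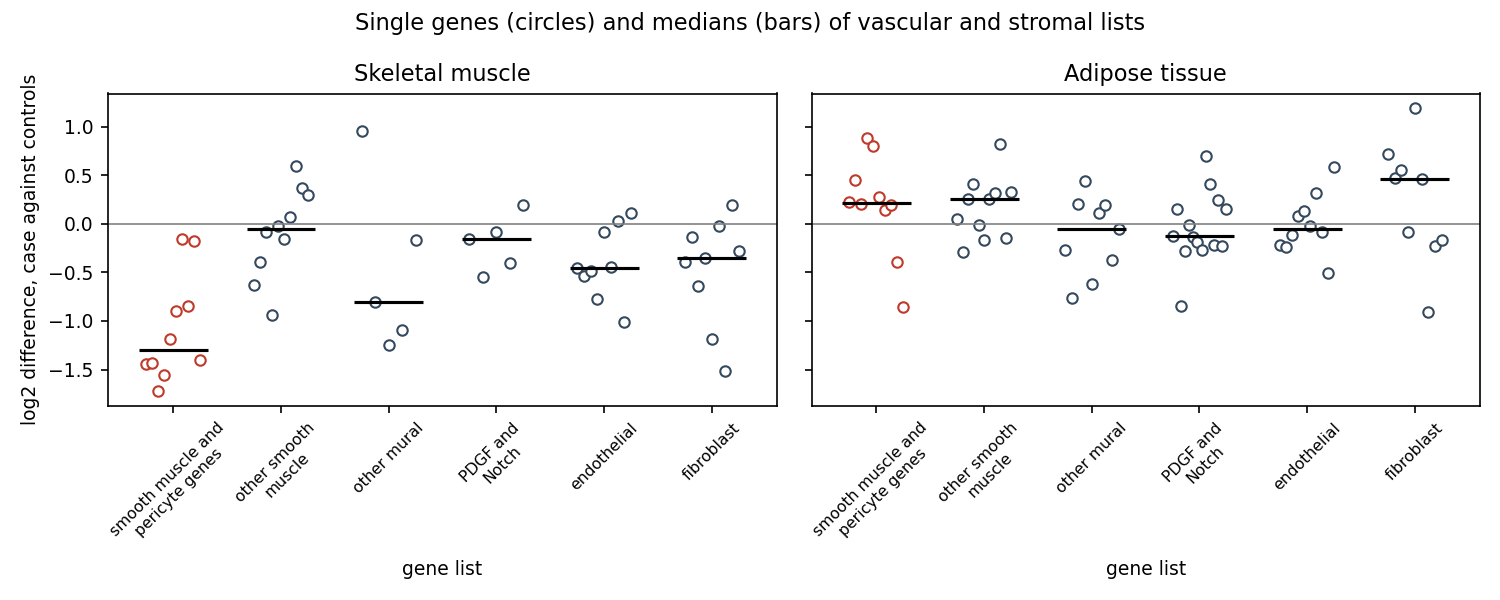
Log2 difference of the case from the controls for single genes (circles) and the median of each list (bars) in skeletal muscle (left) and adipose tissue (right), from edgeR with TMM scaling. In muscle the median of the 10 smooth muscle and pericyte genes is −1.30, the lowest of the 6 lists drawn, while in adipose tissue it is 0.22. Macrophage genes, with a muscle median of −1.06, are not drawn.

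Several of the 10 genes share bases with a gene on the other strand, and whether reads were counted by strand is not given in the sources used here. *MYH11* overlaps *NDE1*, a gene of the mitotic spindle, over 22957 bases, and *NDE1* had 0.878 to 1.48 RPKM in control muscle and 1.27 RPKM in the case. *TAGLN* overlaps the protease gene *PCSK7* by 67 bases, with 2.18 to 3.27 and 2.45 RPKM for *PCSK7* in muscle. In muscle the case was inside the control range for both partners. The part of reads from the other strand in the *MYH11* and *TAGLN* levels was not tested. *ACTA2* overlaps an unnamed gene by 616 bases that had at most 0.202 RPKM in muscle, and 1.41 to 4.19 RPKM in control adipose tissue against 5.67 RPKM in the case. *MYLK* and *LMOD1* overlap unnamed genes that were at 0 in every muscle library.

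Over the 10 libraries, with each tissue centered on its own mean, the gene most like the mean profile of the 10 genes was the phosphatase *PTPRA* (Pearson's r = 0.914), followed by the microtubule protein *MAP1A* (0.902), *EEF1A1* and *CAP1* (0.879 each). This was measured over 5953 named genes, of which 26 exceeded 0.8 and whose median was −0.0183, and the points share their libraries and scaling. Muscle of the case had 1.25 RPKM of *PTPRA* against 1.97 to 3.44 in the controls, and adipose tissue had 29.3 RPKM against 20.3 to 26.7. Of the 10 genes themselves, *ACTA2* was closest to their mean profile (0.940) and *CNN1* next (0.836), and *RGS5* was farthest (0.0717), with *TAGLN* at 0.263. Each of these genes is part of that mean, so its own values enter its correlation.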

How the data were processed

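Per the labels and the study's methods, poly(A) RNA with an RNA integrity number above 7.5 was made into dUTP strand-specific libraries, and uniquely mapped reads from TopHat (1.2.0 in the submitters' processing notes, another release in the methods) were used. No source used here gives the counting tool, genome build or annotation. The authors deposited read counts per gene and RPKM values, which were checked to equal the counts divided by the longest transcript's length and the mapped total in 100% of cases. Starts are printed counted from 1.

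Symbols, found for 54.4% of genes, came from an Ensembl name table. The counts were tested with edgeR 4.0.16 (quasi-likelihood test, TMM, two-sided, Benjamini-Hochberg over all genes tested, limma 3.58.1, R 4.3.3) on genes averaging at least 1 RPKM, 5 libraries per tissue for the hyperinsulinemic monkey, 8 control libraries between tissues, and all 10 for the interaction. The script was tested on simulated data. Alternatives were median-of-ratios scaling, mapped totals, DESeq2 1.42.0, limma on log2(RPKM + 1) and log2(RPKM + 0.1), no filter, a mean of at least 5 RPKM, leaving out each control, 1 fit of all libraries, and the animal as a block. Leaving out the adipose libraries of rhesus_920401 and rhesus_940313 was added after the data were seen for the last 2 comparisons. The 2 tissues come from the same animals. Over 7938 genes, the departure of the muscle library from its control mean correlated with that of the adipose library of the same animal by 0.120, −0.217, 0.0995 and 0.149 in rhesus_920401, rhesus_940129, rhesus_940313 and rhesus_950509. Between different controls the same correlation ran from −0.262 to 0.252. No pair of libraries held identical values.

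The 10 genes and the lists were chosen with earlier results of these data known. From each other list, the genes with the smallest p in the comparison described were named, up to 4. *ACTA1*, *ACTG1*, the adipocyte genes, *PECAM1*, *VWF*, *PDGFB* in adipose tissue, *RGS4* and the overlapping genes were named after their values were seen. So were *CALD1*, *CNN2*, *SMTN*, *KCNMA1* and *SRF* in muscle, and *TNNT3*, *ACTN3*, *CKM* and *MB* in adipose tissue.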

Additional observations from a re-analysis of the deposited data

Results flagged for a closer look

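In control adipose tissue, 2 of the 10 genes had a control far from the other 3 by Dixon's criterion for 4 samples. *TAGLN* in control rhesus_920401 was at 1145 RPKM, with a gap to the next control of 0.91 of the range. *NOTCH3* in control rhesus_940129 was at 8.309 RPKM, with a gap of 0.834 of the range. The criterion was applied to 20 groups of 4 control libraries, and chance alone gives about 1 in 20.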

How the results depend on the processing

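Over the alternatives, 455 values of single genes kept their direction and side of the threshold, 20 gained a call, 8 lost one and 18 reversed. In muscle, DESeq2 called 2 of the 10 genes, against 0, and the median with limma on log2(RPKM + 1) was −0.81, a scale that shrinks low genes. *RGS5* in muscle reversed to 0.0088 with mapped totals, 0.11 and 0.15 with limma at pseudocounts of 1 and 0.1, 0.017 without rhesus_940129 and 0.076 without rhesus_950509 (−0.43 to 0.076 leaving out 1 control). *NOTCH3* there reversed to 0.020, 0.021 and 0.029 with mapped totals and both limma fits. In adipose tissue the median was 0.45 and 0.47 with the 2 limma fits. *CNN1* there reversed to −0.018 without rhesus_920401 (up to 0.39 without rhesus_950509) and −0.21 without the adipose libraries of rhesus_920401 and rhesus_940313, and *NOTCH3* to −0.072 without both.

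Between tissues of the controls, 8 genes were called with mapped totals and with both limma fits, with medians of 1.75, 1.65 and 1.74, and the median was 0.81 with a mean of at least 5 RPKM, which keeps 9 of the 10 genes, and 0.67 without the adipose libraries of rhesus_920401 and rhesus_940313. *NOTCH3* reversed to 0.91, 0.71 and 0.86 with mapped totals and both limma fits, and *CNN1* to −0.037 with median-of-ratios scaling and with DESeq2 and to −0.34 without rhesus_940129 (up to 0.27 without rhesus_940313). *ACTG2* lost its call with median-of-ratios scaling (0.98) and DESeq2, and *RGS5* gained one at 5 RPKM (1.22) and without rhesus_940129 (1.13). The interaction of *RGS5* reversed to 0.073 without rhesus_940313 (down to −0.48 without rhesus_940129). With the animal as a block, the median of the 10 genes between tissues was 0.38, and the pairing changed no call but that of *RGS5*. Unless stated above, the cause was not tested.

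Leaving out 1 control at a time gave medians of −1.43 to −1.12 in muscle, 0.16 to 0.36 in adipose tissue, 0.24 to 0.44 between tissues, with 3 to 4 genes called, and 1.42 to 1.60 for the interaction. Calls over all genes, 0 in the main muscle fit, were 1 with median-of-ratios scaling, 3 with mapped totals, 88 with DESeq2, 1 with limma on log2(RPKM + 1), 10 with no filter and 14 without rhesus_940313. In adipose tissue, 0 became 11 with DESeq2, 6 without rhesus_920401 and 33 without both adipose libraries. For the interaction, 0 became 16 with DESeq2 and 1 with limma at 0.1. Between tissues, 5767 became 3325 at 5 RPKM. Counts of 72 and 79 reads limit *CNN1* and *ACTG2* in muscle of the case, and 1 hyperinsulinemic animal limits every comparison with the controls.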
